A study of Danio rerio with 8 samples.

Results

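Lysosomal lipid handling genes encode the proteins that break down lipids inside lysosomes and pass the products on. The set was defined by name as 10 genes, of which 8 are described: npc1, npc2, gm2a, psap, smpd1, hexa, asah1a and asah1b. The deposited table holds 36109 gene entries, in which lipa, also of the set, matched none and is not analysed here. All 8 passed the filter on low counts, as did 22163 entries in all.

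The data are RNA-seq read counts from whole embryos of the zebrafish, Danio rerio, of the wild-type strain AB, at 24 hours post fertilization (hpf). The E64d group developed between 1 and 24 hpf with 3 µM E64d, which enters cells and blocks cysteine proteases. The DMSO group had the solvent dimethyl sulfoxide alone, stated as 0.5% and matched to the E64d group. Embryos of both groups had a nick cut in the chorion and were held in AFW-PTU medium. Each group had 4 libraries, and each library came from a pool of 7 embryos, so the errors below describe the spread between pools of whole embryos, with every tissue mixed. In such samples fewer cells of a type and less RNA per cell cannot be told apart.

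Lipids reach lysosomes by endocytosis and autophagy. There, hydrolases cut cholesteryl esters, sphingomyelin, ceramide and gangliosides, several of them only with small lipid-binding activator proteins that lift the lipid out of the membrane. Free cholesterol leaves through a relay of the soluble protein Npc2 and the membrane protein Npc1. Cysteine cathepsins, which are among the cysteine proteases that E64d blocks, work in the same compartment. In the zebrafish embryo before feeding, the yolk is the source of lipid.

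Most of the genes described fell in E64d embryos. Of the 8 genes, 5 were lower (npc2, gm2a, psap, hexa and npc1), while 3.85% of all tested genes were called lower. None of the 8 was higher, while 2.28% of all tested genes were called higher. Calls are at an adjusted p under 0.05 by the quasi-likelihood test of edgeR, adjusted by Benjamini-Hochberg over all 22163 genes, the test behind every adjusted p below unless another is named. The count of 0 higher was the same with DESeq2, with limma-voom and at an unadjusted p under 0.05. Of all tested genes 20% had such a p, higher or lower. Without E64d replicates 2, 3 or 4, or under library totals alone, 3 of the 8 were lower. Of 22509 to 22557 genes tested without those replicates, 480, 497 and 367 were lower. Under library totals 498 of all 22163 genes tested were lower, against 853 in the main fit. With replicate numbers as a block 6 of the 8 were lower, smpd1 among them, while 1540 of all 22163 genes tested were lower. The median log2 fold change of the 8 was −0.43, against 0.01 over all tested genes. In the same 5 genes the E64d libraries all lay below the DMSO libraries, a state found in 8.55% of all genes tested. In no member did they all lie above, against 5.86% of all genes tested. The members were chosen with earlier results of these data known, so these counts describe the set and carry no test of their own.

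**Figure D1:**
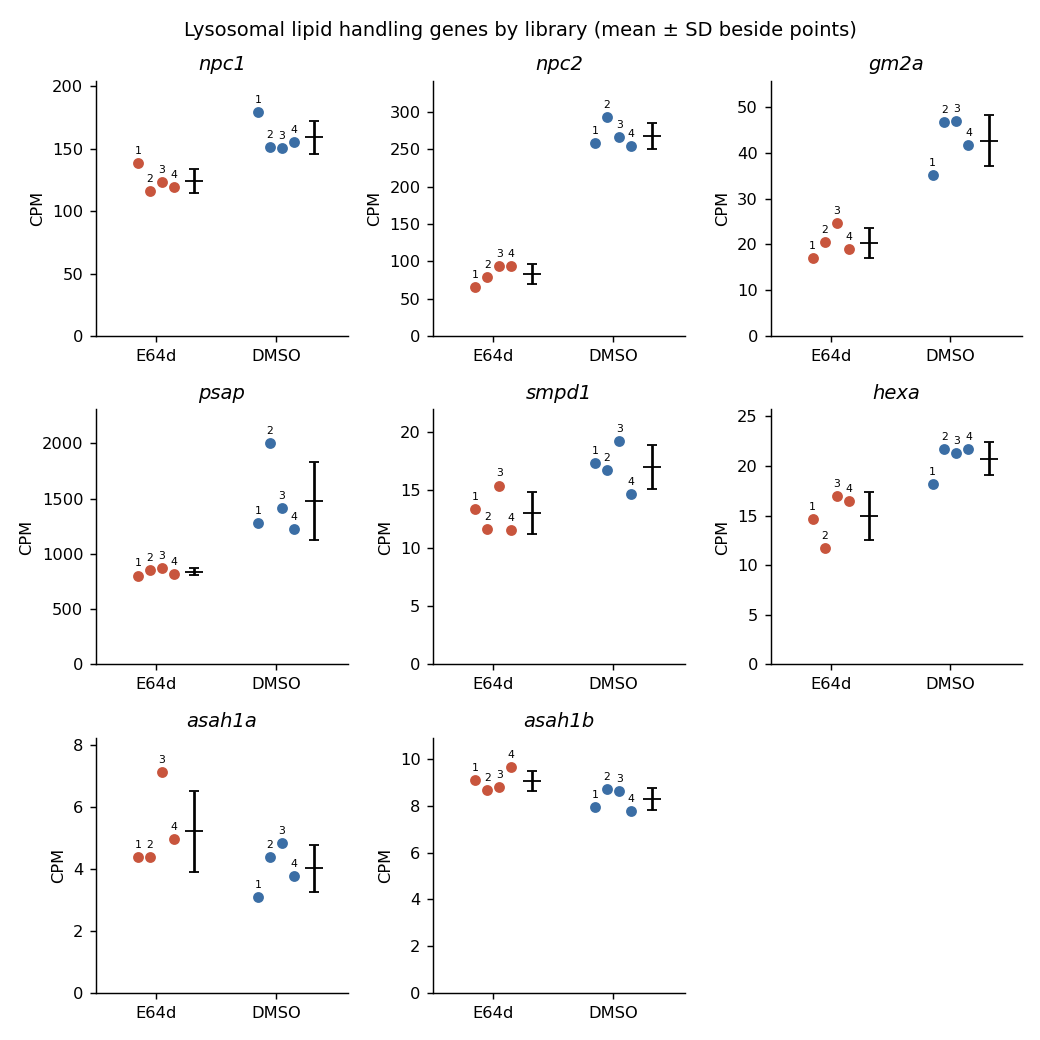
Level of each of the 8 genes in CPM (counts relative to the scaled total of the library) in each library, E64d left and DMSO right, with replicate numbers at the points and the mean ± SD beside them. The groups are apart for npc1, npc2, gm2a, psap and hexa and overlap for smpd1, asah1a and asah1b; DMSO replicate 2 stands high for psap at 1999 CPM.

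The libraries held 29422983 to 37309883 counts, with a common biological coefficient of variation of 20%. Mitochondrial genes took 0.847% of the counts in DMSO replicate 2 and 1.27% to 1.97% in every other library. Of 25 markers that define tissues of an embryo at this stage, all matched and none was at 0 in every library. Over all genes, 506 were higher and 853 lower. With scaling by library totals alone the split was 803 higher and 498 lower. With the replicate block it was 1040 higher and 1540 lower, and with DESeq2 834 higher and 1328 lower. Counts of lists under these alternatives are to be read beside these totals. All levels below are in CPM (counts scaled to the library total after TMM adjustment), which are not adjusted for gene length and so are compared between groups and not between genes.

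The soluble cholesterol carrier fell most. Npc2 binds free cholesterol in the lysosome lumen and hands it to Npc1. The gene npc2 stood at 65.7, 79.5, 93.6 and 94.1 CPM in E64d libraries 1 to 4, against 258, 294, 266 and 254 CPM in DMSO libraries 1 to 4. The highest E64d library was far below the lowest DMSO library. The means were 83.2 ± 13.5 CPM in E64d and 268 ± 17.8 CPM in DMSO (SD, n = 4 each). The level in E64d was thus 31.1% of that in DMSO (log2 fold change −1.69 ± 0.11 SE, edgeR adjusted p = 1.5e-06). Of all 22163 log2 fold changes it was the 66th from the lowest end. The reference gene table of RefSeq (GRCz12tu, used for names, gene order and overlaps) gives npc2 as a synonym of npc2.1 and places npc2.2 next to it. No entry matched npc2.2, so it is not known whether reads of that copy were counted under npc2.

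The membrane partner moved less. Npc1 spans the lysosomal membrane and takes cholesterol from Npc2 for export. The gene npc1 stood at 138, 117, 124 and 119 CPM in the E64d libraries, against 179, 151, 151 and 155 CPM in the DMSO libraries. The groups did not overlap, but the gap between them was narrow. The mean was 124 ± 9.74 CPM in E64d and 159 ± 13.5 CPM in DMSO (log2 fold change −0.36 ± 0.08, edgeR adjusted p = 0.0222). This call was lost without E64d replicates 2, 3 or 4 or DMSO replicate 1 (adjusted p = 0.0747, 0.0643, 0.0898 and 0.0502) and under library totals alone (adjusted p = 0.0893), always with a lower level in E64d.

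Whether the pair responded alike was tested on the ratio of their counts within each library, which does not depend on the scaling. The ratios here and below restate the fold changes of members chosen with earlier results of these data known. Their p-values are therefore no separate support for the falls. The log2 ratio of npc2 to npc1 was −1.07, −0.55, −0.40 and −0.34 in E64d, against 0.53, 0.96, 0.82 and 0.71 in DMSO. Of the counts of the pair, npc2 held 32.2% to 44.1% in the E64d libraries, against 59.0% to 66.0% in the DMSO libraries. The difference of the mean log2 ratios was −1.35 (2-sided exact permutation test, p = 0.0286, the smallest that 4 against 4 can give, and 0.0476 after adjustment over 5 such pairs). The call was lost without any 1 DMSO library (exact permutation, adjusted p = 0.0714), at differences of −1.42 to −1.28. With 3 against 4 libraries no exact p can fall below 0.0286, and the adjusted p depends on the other ratios as well. The call was also lost when libraries were paired by replicate number, where 4 pairs allow no exact p below 0.125.

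Lysosomal acid lipase, the enzyme that frees cholesterol from its esters, is encoded by the lipa gene in mammals. Of the acid lipase family the table holds lipf, which is not one of the set and is named after its values were seen. The gene lipf stood at 26.0, 31.2, 27.0 and 32.5 CPM in E64d, against 38.6, 36.9, 44.6 and 41.0 CPM in DMSO, with no overlap. Its log2 fold change was −0.47 ± 0.10 (edgeR adjusted p = 0.0148). That call was lost without E64d replicates 1 or 3, without DMSO replicate 3 and under library totals alone (adjusted p up to 0.0536).

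Both genes for activator proteins fell. Gm2a is the GM2 activator, a cofactor that presents ganglioside GM2 to hexosaminidase A. The gene gm2a stood at 17.0, 20.4, 24.8 and 19.0 CPM in E64d, against 35.1, 46.8, 46.9 and 41.7 CPM in DMSO. The mean in E64d was 20.3 ± 3.31 CPM and in DMSO 42.6 ± 5.58 CPM, so the E64d level was 47.6% of the DMSO level (log2 fold change −1.07 ± 0.13, edgeR adjusted p = 0.000256). Every E64d library lay below every DMSO library.

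Prosaposin, the product of psap, is cut in lysosomes into the saposins, which help enzymes such as glucocerebrosidase and acid ceramidase reach their lipids. The gene psap stood at 804, 857, 873 and 821 CPM in E64d, against 1276, 1999, 1411 and 1228 CPM in DMSO. The E64d libraries were close together, with a coefficient of variation of 3.79%, and the DMSO libraries were spread, at 24.1%. The log2 fold change was −0.82 ± 0.13 (edgeR adjusted p = 0.00214), which puts the E64d level at 56.7% of the DMSO level. The high DMSO replicate 2 is also the library with the low mitochondrial share. Without it the log2 fold change of psap was −0.63 (adjusted p = 3.28e-05). In the RefSeq gene table psap overlaps meis1b, a homeobox gene, which stood at 208 CPM in E64d and 196 CPM in DMSO (adjusted p = 0.579). That overlap is of the build GRCz12tu and need not hold in the annotation that was counted.

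The subunit gene hexa also fell. Hexa is the subunit that lets hexosaminidase A act on ganglioside GM2. The gene hexa stood at 14.6, 11.7, 17.0 and 16.4 CPM in E64d, against 18.2, 21.7, 21.3 and 21.7 CPM in DMSO. The groups were apart by a small margin, between E64d replicate 3 and DMSO replicate 1. The log2 fold change was −0.47 ± 0.13 (edgeR adjusted p = 0.046). The call was the weakest of the 5. It was lost without any one of E64d replicates 1, 2, 3 and 4 or DMSO replicates 2, 3 and 4 (adjusted p = 0.106, 0.106, 0.0527, 0.0825, 0.0825, 0.111 and 0.0967), and under library totals alone (adjusted p = 0.099).

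The activator gene shifted against the subunit gene: the log2 ratio of gm2a to hexa averaged 0.44 ± 0.29 in E64d and 1.04 ± 0.10 in DMSO, a difference of −0.59 (exact permutation p = 0.0286, adjusted p = 0.0476). Without any 1 DMSO library the exact permutation test gave an adjusted p of 0.0952, and in pairs by replicate number 0.125.

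**Figure D2:**
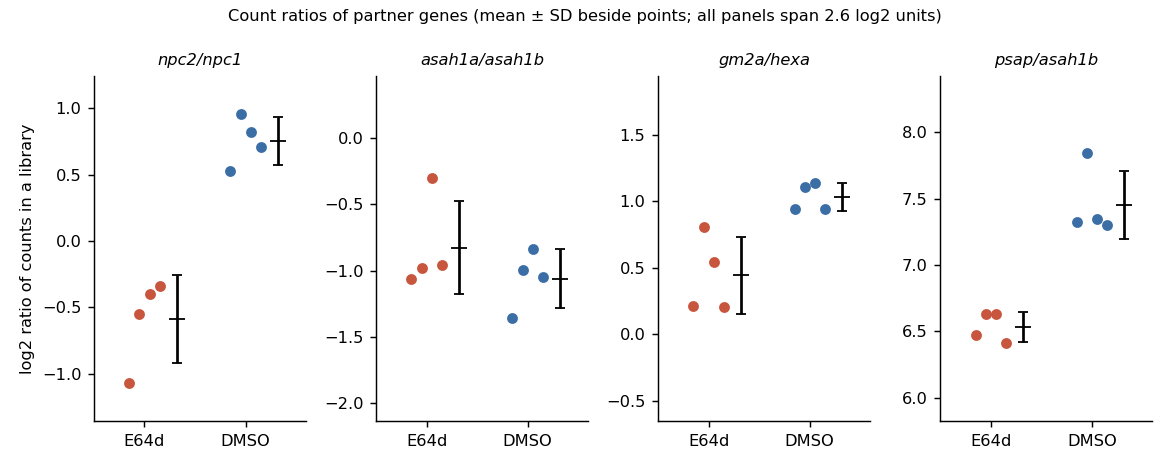
Log2 ratio of the counts of 2 genes within each library for 4 pairs, E64d left and DMSO right, with the mean ± SD beside the points. The ratios of npc2 to npc1, gm2a to hexa and psap to asah1b are lower in every E64d library than in any DMSO library, while that of asah1a to asah1b overlaps.

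The genes for the sphingomyelin and ceramide hydrolases did not pass. Acid sphingomyelinase, from smpd1, turns sphingomyelin into ceramide. The gene smpd1 stood at 13.4, 11.6, 15.4 and 11.6 CPM in E64d, against 17.4, 16.7, 19.2 and 14.7 CPM in DMSO, with 3 of 4 E64d libraries below all DMSO libraries. Its log2 fold change was −0.38 ± 0.13 (95% interval −0.66 to −0.11, edgeR adjusted p = 0.1003). The replicate numbers were found to pair the libraries, and with the number as a block smpd1 passed (log2 fold change −0.39, adjusted p = 0.0272). All 4 within-number differences were negative, between −0.52 and −0.32.

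Acid ceramidase splits ceramide into sphingosine and fatty acid, and zebrafish have the 2 gene copies asah1a and asah1b. The gene asah1a stood at 4.37, 4.39, 7.14 and 4.96 CPM in E64d, against 3.10, 4.37, 4.85 and 3.78 CPM in DMSO. The groups overlapped, with E64d replicate 3 the highest library. Within each replicate number E64d was above DMSO, by 0.01 to 0.56 on the log2 scale. The counts behind these levels were 98 to 275 per library, the fewest of the 8 genes. The log2 fold change was 0.38 ± 0.22, with a 95% interval of −0.10 to 0.85 (edgeR adjusted p = 0.377), so a change between slightly lower and 1.80-fold higher lies within the error.

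The copy asah1b stood at 9.10, 8.67, 8.83 and 9.65 CPM in E64d, against 7.97, 8.72, 8.66 and 7.80 CPM in DMSO. Its libraries varied little, with coefficients of variation of 4.75% in E64d and 5.67% in DMSO. The log2 fold change was 0.13 ± 0.12 (95% interval −0.13 to 0.39, edgeR adjusted p = 0.621). The ratio of asah1a to asah1b did not differ detectably (difference of log2 ratios 0.23, exact permutation p = 0.371). In pairs by replicate number the exact permutation test gave it an adjusted p of 0.125, the smallest that 4 pairs allow. Saposin D from psap serves acid ceramidase as cofactor, and the log2 ratio of psap to asah1b averaged 6.53 ± 0.11 in E64d and 7.45 ± 0.26 in DMSO. That difference of −0.92 gave an exact permutation p of 0.0286 (adjusted p = 0.0476). It restates the fold changes of psap and asah1b given above. The call was lost without any 1 DMSO library (exact permutation, adjusted p = 0.0714), at differences of −0.97 to −0.79, and in pairs (0.125). Here too the adjusted p depends on the other ratios as well.

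**Figure D3:**
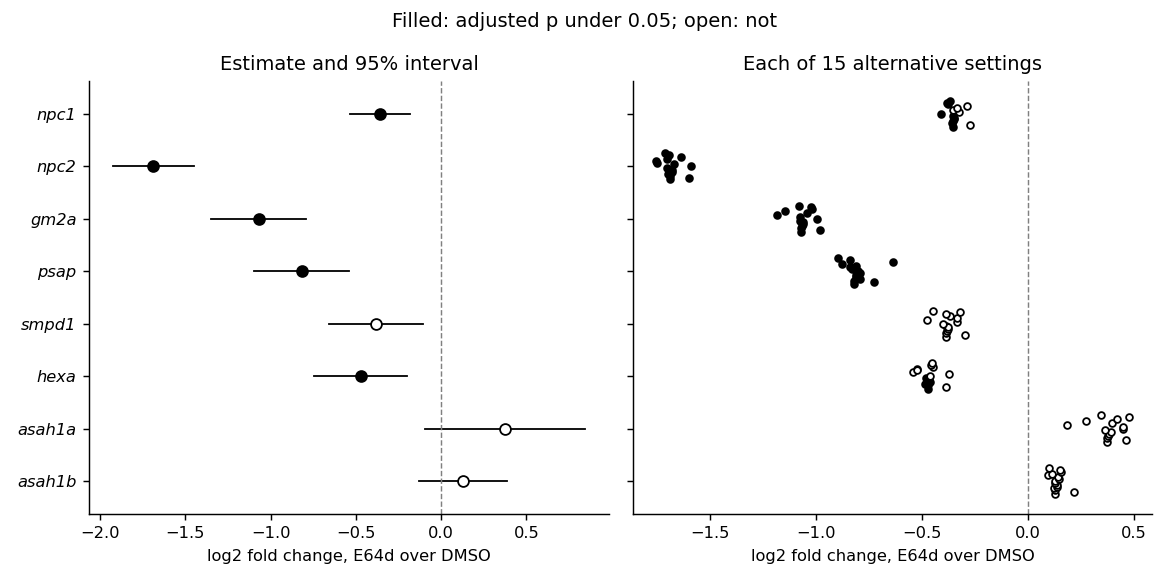
Log2 fold change of E64d over DMSO for each gene, with the 95% interval at left and the values under 15 alternative settings at right; filled points have an adjusted p under 0.05. The fall of npc2, −1.69, is the largest, the calls of npc2, gm2a and psap are filled in all 15, and asah1a and asah1b lie above 0 with open points.

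Other genes of the same compartment were read from lists written with earlier results of these data known. Of 37 tested genes for other lysosomal lipid enzymes, cofactors and membrane proteins, 4 were lower and 1 was higher, against 3.85% lower and 2.28% higher over all genes tested, with a median log2 fold change of −0.06. Their summed level was 1415 to 1472 CPM in E64d libraries and 1494 to 1571 CPM in DMSO libraries. At an unadjusted p under 0.05, which 20% of all genes tested had in either direction, 8 were lower and 5 higher. Without DMSO replicate 2 or under library totals alone, 2 were higher and 3 lower. With the replicate block 2 were higher and 4 lower, and leaving out single libraries gave 3 to 4 lower. The 4 lower ones in the main fit were plbd1, pla2g15, spns1 and ARSB. The phospholipase B-like gene plbd1 averaged 52.2 ± 4.94 CPM in E64d and 105 ± 8.53 CPM in DMSO (log2 fold change −1.01 ± 0.09, edgeR adjusted p = 1.79e-05). The gene of the lysosomal phospholipase A2, pla2g15, averaged 45.3 ± 7.13 CPM in E64d and 73.9 ± 3.15 CPM in DMSO (−0.71 ± 0.10). The exporter of lysophospholipids, spns1, averaged 62.3 ± 5.29 CPM in E64d and 94.9 ± 13.1 CPM in DMSO (−0.61 ± 0.10).

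ARSB encodes arylsulfatase B, which acts on glycosaminoglycans and not on lipids. It averaged 7.46 ± 0.516 CPM in E64d and 11.3 ± 2.19 CPM in DMSO, and its call was lost in 7 of 15 alternatives (adjusted p up to 0.0971), among them leaving out each E64d replicate in turn or DMSO replicates 1 or 2. The riser was scarb2a, of the family of the membrane protein LIMP-2, which carries glucocerebrosidase to lysosomes. It averaged 355 ± 12.0 CPM in E64d and 277 ± 16.6 CPM in DMSO (0.36 ± 0.07, edgeR adjusted p = 0.00667).

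Enzymes that saposins assist were looked up after their values were seen. The glucocerebrosidase gene gba averaged 11.8 ± 2.29 CPM in E64d and 10.1 ± 3.08 CPM in DMSO (adjusted p = 0.591). The galactosylceramidase gene galca averaged 23.3 ± 1.14 CPM in E64d and 24.2 ± 3.31 CPM in DMSO (adjusted p = 0.833), and its copy galcb 14.9 ± 1.05 CPM in E64d and 17.1 ± 2.6 CPM in DMSO (adjusted p = 0.387). The arylsulfatase A gene arsa averaged 18.9 ± 0.777 CPM in E64d and 18.6 ± 2.25 CPM in DMSO (adjusted p = 0.926). None of these 4 passed by edgeR. The lysosomal membrane protein genes lamp1a, lamp1b and lamp2 did not pass either. The log2 fold change was 0.01 for lamp1a and −0.17 for lamp2, and 0.29 for lamp1b, whose E64d libraries all lay above the DMSO libraries (edgeR adjusted p = 0.103).

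Outside the lysosome, genes of sphingolipid synthesis and turnover were called about as often as all genes. Of 44 tested, 2 were higher and 1 was lower, against 2.28% higher and 3.85% lower over all genes tested, with a median log2 fold change of 0.01. The gene ormdl3, an inhibitor of the enzyme that starts sphingolipid synthesis, averaged 24.9 ± 4.96 CPM in E64d and 6.69 ± 0.601 CPM in DMSO (1.90 ± 0.15, edgeR adjusted p = 5.64e-06). The related ormdl1 averaged 23 CPM in E64d and 24.9 CPM in DMSO, and ormdl2 12 CPM and 12.3 CPM. Neither was called (edgeR adjusted p = 0.564 and 0.927). The neutral sphingomyelinase gene smpd2a, whose product acts outside lysosomes, averaged 34.3 ± 2.23 CPM in E64d and 67.0 ± 4.92 CPM in DMSO (−0.97 ± 0.08, edgeR adjusted p = 1.31e-05). The ceramide transfer gene col4a3bpa also passed (0.34 ± 0.09), a call lost under RLE scaling and without any one E64d replicate or DMSO replicates 3 or 4 (adjusted p up to 0.132).

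Cholesterol handling outside the lysosome moved in both directions. Of 33 tested genes 10 were higher and 4 were lower, against 2.28% higher and 3.85% lower over all genes tested. The median log2 fold change was 0.14. The risers with the smallest p were soat1, which esterifies cholesterol for storage (2.05 ± 0.13), the endocytic receptor gene lrp1aa (0.96 ± 0.08), the regulator gene srebf1 (1.15 ± 0.10) and gramd1ba, a carrier of plasma membrane cholesterol (0.81 ± 0.14). The receptor gene lrp1aa averaged 72.5 ± 2.03 CPM in E64d and 37.2 ± 3.31 CPM in DMSO. Its copy lrp1ab averaged 255 ± 3.61 CPM in E64d and 270 ± 20.4 CPM in DMSO and was not called (edgeR adjusted p = 0.578). The lower genes were soat2 (−1.86 ± 0.18), the lipoprotein receptor gene scarb1 (−0.86 ± 0.16), cetp (−0.82 ± 0.19) and gramd1bb (−0.71 ± 0.16). The calls of cetp (without E64d replicates 1, 2 or 4 or DMSO replicate 4) and gramd1bb (without E64d replicates 2, 3 or 4 or DMSO replicate 1) were lost when single libraries were left out, with an adjusted p up to 0.0791 and 0.0869. With the replicate block 13 genes of this list were higher and 4 lower, against 1040 higher and 1540 lower of all 22163 genes tested.

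Of 21 tested genes for the delivery of lysosomal enzymes and for regulators of lysosomal genes, 1 was higher and none was lower. Over all genes tested 2.28% were higher and 3.85% lower. The higher gene was tfe3a (0.56 ± 0.09, edgeR adjusted p = 0.00347). At an unadjusted p under 0.05, which 20% of all genes tested had in either direction, 4 of the 21 were higher and none lower. With DESeq2, with the replicate block, under library totals alone or without DMSO replicate 1, 2 were higher, and with limma-voom 1 was. None was lower with DESeq2 or limma-voom. The gene tfeb, for the main activator of lysosomal genes in mammals, averaged 9.29 ± 1.5 CPM in E64d and 9.72 ± 2.25 CPM in DMSO (adjusted p = 0.893).

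**Figure D4:**
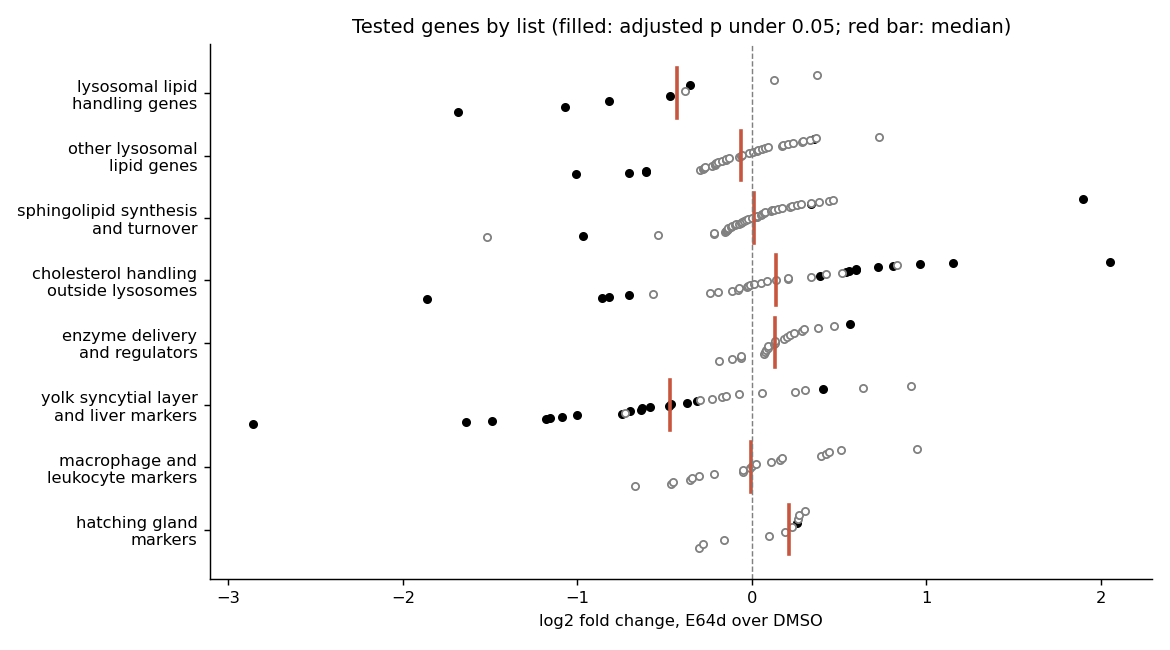
Log2 fold change of E64d over DMSO for the genes described and every tested gene of each list except the embryo markers. Each list has 1 row of points, with filled points for an adjusted p under 0.05 and a red bar at the median. The lysosomal lipid handling genes have a median of −0.43, the yolk syncytial layer and liver markers −0.47, and the other lysosomal lipid genes −0.06.

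Markers of cell types that could carry these genes were read beside the falls. Over all genes tested 3.85% were lower and 2.28% higher. Of 28 tested markers of the yolk syncytial layer and early liver, 16 were lower and 1 was higher. Their summed level was 17300 to 20140 CPM in E64d libraries and 23480 to 26170 CPM in DMSO libraries, a difference of mean log2 sums of −0.39. Beside it stand log2 fold changes of −1.69 for npc2, −1.07 for gm2a, −0.82 for psap, −0.47 for hexa, −0.38 for smpd1 and −0.36 for npc1. The sum rests mostly on abundant markers. The most abundant, apobb.1, averaged 7110 CPM in E64d and 8740 CPM in DMSO and was not called (edgeR adjusted p = 0.14). Single markers ranged widely, and 11 were not called, among them apoa1a (−0.08) and apoa4b.2 (0.63). The lipid transfer gene mttp, whose product loads lipid onto lipoproteins, averaged 9.73 ± 1.51 CPM in E64d and 70.7 ± 5.66 CPM in DMSO (−2.86 ± 0.12, edgeR adjusted p = 4.3e-08). The protease inhibitor gene serpina1l (−1.18), the apolipoprotein gene apoc2 (−1.16) and the transferrin gene tfa (−1.09) also fell. The 1 higher marker was the transcription factor gene gata6 (0.41), a call lost without E64d replicates 1 or 2 or DMSO replicate 3 (adjusted p up to 0.0609). Their part in the falls of the lysosomal lipid handling genes was not tested. Of 20 tested markers of macrophages and other leukocytes, none was called by edgeR or limma-voom. By DESeq2, with the replicate block and under library totals alone, 1 of these markers was higher. At an unadjusted p under 0.05, which 20% of all genes tested had in either direction, 1 of these markers was higher. Their summed level was 61.7 to 79.6 CPM in E64d and 59.0 to 75.0 CPM in DMSO, so the groups overlapped. This sum rests mostly on lcp1, slc7a7, csf1ra and mpx. Many of the other leukocyte markers were scarce, such as mpeg1.1 at 1.29 CPM in E64d and 1.14 CPM in DMSO (log2 fold change 0.17 ± 0.57). In these a sizeable change could go uncalled. No marker of either list was at 0 in every library.

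Of 10 tested hatching gland markers 1 was higher, cd63, and none was lower, against 2.28% higher and 3.85% lower over all genes tested. Their sum was 2238 to 2285 CPM in E64d and 1977 to 2123 CPM in DMSO, so the groups did not overlap and E64d was above. The most abundant, he1.1, averaged 1120 CPM in E64d and 985 CPM in DMSO and was not called (edgeR adjusted p = 0.126). The marker xbp1 went the other way, at 259 CPM in E64d and 319 CPM in DMSO (edgeR adjusted p = 0.135). The call of cd63 was lost without any one E64d replicate or DMSO replicates 3 or 4 (adjusted p up to 0.129). With the replicate block 4 markers were higher, as were 1040 of all 22163 genes tested. At an unadjusted p under 0.05, which 20% of all genes tested had in either direction, 4 hatching gland markers were higher and 1 was lower. With DESeq2 2 were higher and with limma-voom 1 was, and none was lower with either. The embryo markers had 1 called lower of 24, the skin keratin gene cyt1 (−0.39 ± 0.07), against 3.85% over all genes tested, and 3 called higher with the replicate block.

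Among 10070 named genes with a mean of at least 10 CPM, those with the pattern most like each lowered gene were found from the root mean square difference of log2 deviations over the 8 libraries. This likeness is a description, since the shift between the groups makes up most of it. For npc2 the nearest were nr0b2a, which encodes a nuclear receptor without a DNA-binding domain (difference 0.13), the folate enzyme gene mthfd1b (0.16) and the cysteine dioxygenase gene cdo1 (0.16). The gene nr0b2a averaged 30.2 ± 2.73 CPM in E64d and 92.9 ± 11.1 CPM in DMSO.

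For gm2a the nearest were the retinol binding gene rbp5 (0.10), the transcription factor gene bach2a (0.11) and cmbl (0.15). For psap they were ccdc12 (0.06), the lysosomal thiol reductase gene ifi30 (0.07) and bhmt, a methyltransferase of betaine and homocysteine (0.09). The gene ifi30 averaged 23.7 ± 0.921 CPM in E64d and 44.5 ± 8.40 CPM in DMSO. Like psap it varied more among DMSO libraries, which the choice by likeness over the same libraries favours. For npc1 they were tuba8l4, mrpl12 and tpst1 (0.04 to 0.06), and for hexa dhx30, mrps17 and cmss1 (0.08 to 0.10).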

How the data were processed

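The deposited values are raw read counts per gene and library. The submitters' processing notes name STAR 2.7.10b, featureCounts 2.0.6, FastQC 0.12.1 and Trim Galore 0.6.10, and the genome build GRCz11. Which annotation and strand setting were used, and how multi-mapping reads were treated, is not given in the sources used here, so reads of overlapping genes and near copies may be mixed. Columns were matched to samples by the names in the labels, and 6 columns that name no sample stayed unused. Even numbers made up 75.9% to 80.7% of counts from 1 to 20, as when both mates of a pair are counted, so an alternative used counts divided by 2 and rounded up.

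Counts were tested with edgeR 4.0.16 in R 4.3.3 (filterByExpr at its defaults, TMM scaling, quasi-likelihood test, Benjamini-Hochberg adjustment over 22163 genes). Standard errors and 95% intervals were derived from the test statistic. CPM values were computed from the counts. Ratios within a library were compared by 2-sided exact permutation tests. Alternatives were RLE scaling, library totals, DESeq2 1.42.0, limma-voom (limma 3.58.1), no filter, halved counts, a replicate block and leaving out each library. Of the set, 1 gene is not reported here, nor is the ratio that needs it, which still entered the adjustment over 5 ratios. Members, lists and alternatives were chosen with earlier results of these data known. The 8 lists had 249 entries: 231 matched the table (12 of them by a RefSeq synonym or ignoring letter case), 13 did not match and 5 were second names. All 8 members described are named, and of each list up to 4 called genes of smallest p in each direction. For patterns, log2 of CPM plus 0.01 was used.

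Replicate numbers were taken from the titles. Deviations from group means correlated across genes at 0.122 to 0.413 between same-numbered libraries and at −0.239 to 0.089 between others. All 4 same-number values exceeded 0.1, so the numbers were taken to pair the libraries. No label says what a number stands for, so this pairing rests on the correlations alone. The main fit and the main permutation tests did not use the pairing.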

Additional observations from a re-analysis of the deposited data

Results flagged for a closer look

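In 2 of the 16 sets of 4 libraries (8 genes in 2 groups), 1 library stood apart by Dixon's criterion, which chance meets in about 1 of 20 sets. Both were DMSO replicate 1. For npc1 it was the highest DMSO library, at 179 CPM against 151 to 155 CPM in the others, and without it the fall of npc1 was −0.29 on the log2 scale (edgeR adjusted p = 0.0502). For hexa it was the lowest DMSO library, at 18.2 CPM against 21.3 to 21.7 CPM, and without it the log2 fold change was −0.52 (edgeR adjusted p = 0.0381).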

How the results depend on the processing

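No member changed direction under any of the 15 alternatives. The calls of npc2, gm2a and psap held in all 15, with log2 fold changes of −1.75 to −1.59, −1.18 to −0.98 and −0.90 to −0.63. Those of npc1 and hexa held in 10 and 7 of 15. Leaving out single libraries gave 3 to 4 members lower and none higher, library totals alone gave 3 lower, and the replicate block gave 6, since smpd1 passed. Over all genes tested, 367 to 836 were lower without single libraries, 498 under library totals and 1540 with the block. In the main fit 853 were lower. The count of all changed genes was 2162 with DESeq2 and 2580 with the replicate block, which kept all 1359, and 655 to 1396 when single libraries were left out. The block changed the call of no other member. For the partner ratios, 4 pairs allow no permutation p below 0.125, so with the replicate block no ratio could pass, at differences of −1.35 for npc2 to npc1, −0.59 for gm2a to hexa and −0.92 for psap to asah1b. Leaving out libraries gave −1.43 to −1.19, −0.71 to −0.51 and −0.97 to −0.79, with adjusted p up to 0.0714, 0.0952 and 0.0714, lost without any 1 DMSO library. The adjusted p of each ratio depends on the other ratios as well. The fewest counts, 98 to 275 per library, were behind asah1a.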

Other observations

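The 8 genes together took 0.109% to 0.12% of all counts in E64d libraries and 0.171% to 0.236% in DMSO libraries. Most of these counts belonged to psap, at 74.9% to 77.2% in E64d and 71.1% to 78.6% in DMSO. Without psap the other 7 genes summed to 253 to 290.3 CPM in E64d and 499 to 543 CPM in DMSO, so the lower total did not rest on psap alone. Most of the difference that remained lay in npc2, which averaged 83.2 CPM in E64d and 268 CPM in DMSO.

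Neighbours of the members in RefSeq's gene order mostly did not pass. That order is of the build GRCz12tu, while the processing notes name GRCz11. It need not hold in the annotation that was counted. Beside gm2a lies fat2, at 84.3 CPM in E64d and 71.9 CPM in DMSO (adjusted p = 0.236), and beside npc2 lies isca2, at 3.57 CPM in E64d and 4.87 CPM in DMSO (adjusted p = 0.251). Beside psap lie mrps6, at 22.1 CPM in E64d and 31.3 CPM in DMSO (adjusted p = 0.0833), and abcg2c, at 28.4 CPM and 34.0 CPM (adjusted p = 0.13). The log2 fold changes of egfra, ilk, pkp3a, nr2e3, pcm1 and frg1 lay between −0.30 and 0.19. Only tpte beside smpd1 was called, against 3.85% lower and 2.28% higher over all genes tested. The gene tpte was lower, at 35.3 CPM in E64d and 47.9 CPM in DMSO (log2 fold change −0.44, edgeR adjusted p = 0.0462). That call lies near the threshold and was not followed through the alternatives.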
